A study of Mus musculus with 24 samples.

Results

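The arrays labelled FO were set against the arrays labelled T3 in NOD/ShiLtJ (NOD) mice, by the titles of the arrays in the deposited table. Each label has 2 arrays, so the comparison used 4 of the 24 arrays of the series. The other 20 arrays are 8 of NOD mice labelled T1, T2FO, T2MZ or MZ, and 12 of B6 mice with all 6 labels. By their labels, the FO arrays held RNA from splenic follicular B cells of female NOD mice aged 7 weeks. The T3 arrays held, likewise by label, RNA from the splenic transitional B cells of that stage, from female NOD mice of the same age. No mouse was treated. Spleen cells of 8 mice were pooled, cells bearing CD3ε or CD11b were removed with magnetic beads, and the rest were over 93% B cells. Flow sorting then used antibodies to CD93, CD23, CD24, B220 and IgM and to CD21/35. The whole procedure was done in 2 experiments, and each array is thus 1 sort from 1 pool of 8 mice, with no measure of the spread between single animals. Arrays labelled FO and T3 may be sorts from the same pools, which the labels do not say. The main fit did not pair them, and a fit with the replicate number as a block is given further below. The RNA was amplified in 2 rounds from an oligo(dT) primer and hybridised to Affymetrix mouse genome arrays.

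Transitional B cells are recent emigrants from the bone marrow, marked by CD93, and the T3 stage is CD93+ and CD23+ with low surface IgM. In mice without immunoglobulin transgenes the T3 gate is known to hold many anergic cells, that is, cells that have met antigen and respond poorly. Follicular B cells are the resting, recirculating mature cells of the lymphoid follicle and have lost CD93. Splenic macrophages lie beside these cells: red pulp macrophages take up old red cells and recycle iron, and others of the marginal zone and the follicle clear bacteria and dying cells. They carry the complement C1q chains, the receptor for macrophage colony stimulating factor (Csf1r) and scavenger receptors, which B cells are not known for. Cell cycle genes are shared by all dividing cells, so they name no cell type. Macrophage transcripts, cell cycle transcripts and all others were therefore kept apart.

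The deposited values are centred, so that 0 is the median of a probe set over the 24 arrays. They carry differences between arrays but no expression level, and 1 unit is a 2-fold difference if the logarithm is base 2. Differences are given as FO minus T3 with the standard error of the fit. A gene was counted as changed when the adjusted p of limma's moderated test was under 0.05 over all 18193 genes. The number of arrays, 2 in each group, limits the precision of each value, and spots give no counts from which a depth could be had. The replicate arrays differed by a root mean square SD of 0.25 log2 units in arrays labelled FO and 0.30 in arrays labelled T3. Over all genes their centred values correlated at 0.51 for FO and at 0.22 for T3, which was the lowest of the 6 NOD groups. The 5′ β-actin control read 0.77 and 0.60 on the FO arrays and 0.72 and -0.09 on the T3 arrays, so replicate 2 of T3 stood apart in it. The labels were also set against the transcripts of the sort markers. Cd93 encodes the marker that falls as B cells mature, and it read -0.59 and -0.36 in arrays labelled FO, against 0.09 and 0.23 in arrays labelled T3. Both FO arrays lay below both T3 arrays, but the difference of -0.64 ± 0.22 did not pass the test (adjusted p = 0.779). In B6 mice the same pair of labels gave Cd93 values of 0.17 and -0.56 in FO and of 2.22 and 2.83 in T3. Among NOD groups Cd93 was lowest under the label T1 (mean -2.09), the earliest stage by name, where Cr2, which encodes CD21/35, was highest (mean 1.20). Cd93 was also lower under the NOD labels T2MZ (mean -1.51) and MZ (mean -1.73) than under FO (mean -0.47). The label FO was thus not the lowest in Cd93 within NOD mice. The NOD labels therefore run against the gate transcripts in part, and the groups are called by their labels here.

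Over all genes, 50 of 18193 rose in arrays labelled FO (0.275%) and 1 fell (0.0055%), against T3. Of the 51, 31 belonged to the macrophage class, none to the cell cycle class and 20 to neither. The macrophage class holds the 35 measured genes of a list of macrophage transcripts, and 117 more genes that correlated above 0.7 with the mean of that list over the 20 arrays outside the comparison. The cell cycle class was built likewise around 57 list genes and holds 190. The 50 genes that rose did so by 1.01 to 5.71 log2 units. Both FO arrays lay above both T3 arrays in all 50. With 2 arrays in each group such separation came with passing, and it is no further support for a gene that passed. In 33 of the 50 the FO arrays were the highest of all 24 arrays, and in 47 the highest of the 12 NOD arrays. These genes were picked by the same FO values, so a high rank is in part built in. The share over all genes was not counted. Without replicate 2 of T3, 33 genes passed in place of 51, and 27 of the 51 passed whichever of the 4 arrays was left out. With all 24 arrays in the fit, whose B6 replicates spread more widely (0.47 to 0.56), 22 passed.

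**Figure D1:**
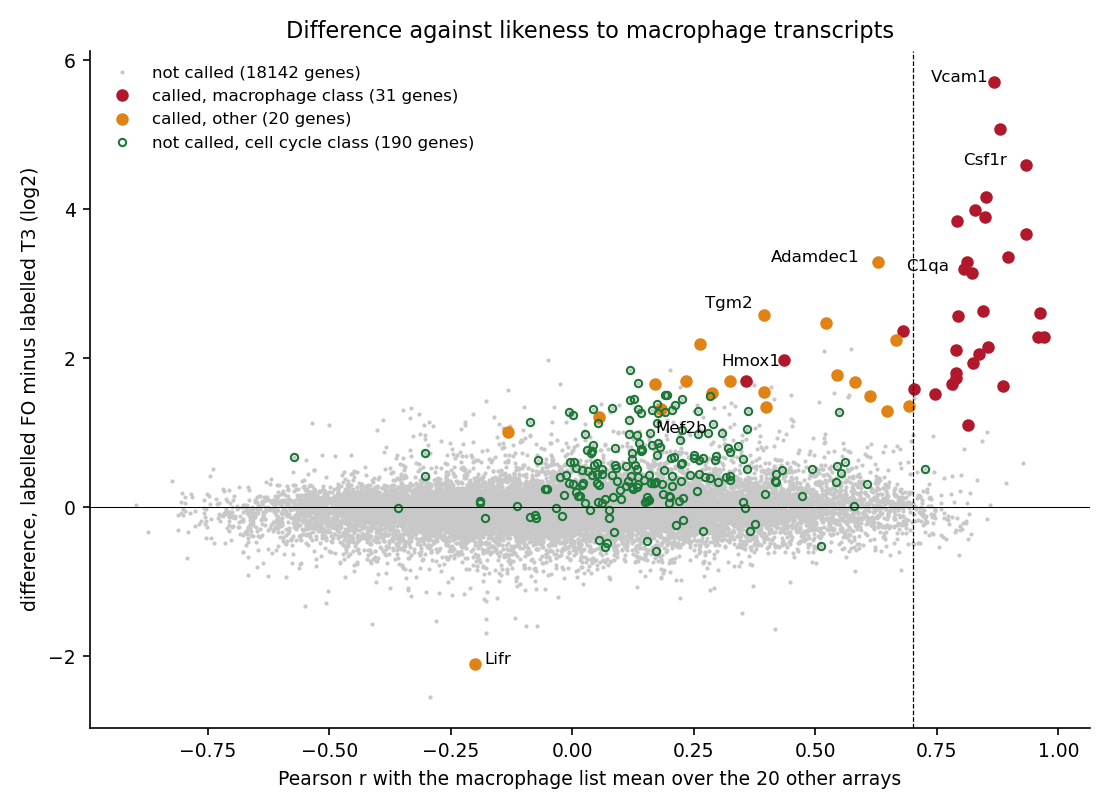
Each point is a gene: the vertical axis is its difference, labelled FO minus labelled T3, in log2 units, and the horizontal axis is its Pearson correlation with the macrophage list mean over the 20 arrays outside the comparison, with the class threshold of 0.7 dashed. The genes that changed are filled: 31 in the macrophage class, with correlations from 0.36 to 0.97, and 20 others, from -0.20 to 0.69. The macrophage class genes left of the dashed line, such as Hmox1 at 0.36, are list members. Open rings are the 190 cell cycle class genes, none of which passed.

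Of the 35 measured genes of the macrophage list, 17 rose in arrays labelled FO and none fell. The list median was 1.70, against -0.02 over all genes, and both FO arrays lay above both T3 arrays in 25 of the 35, where the share over all genes was 14.4%. The mean of the list was 1.83 and 1.74 on the FO arrays, against -0.05 and 0.07 on the T3 arrays. It lay between -0.18 and 0.25 on the 8 other NOD arrays. The FO arrays were thus the highest of the series in it, followed by replicate 2 of B6 MZ at 1.43. All other B6 arrays stood between -0.21 and 0.55, and in B6 mice the median of the list's FO minus T3 differences was 0.00. In bulk RNA, more cells of a type and more RNA per cell cannot be told apart.

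The list's members differed in size more than in direction. The table of promoter windows from RefSeq on GRCm38 matched 11 of the 17 list genes that rose. The purine-rich hexamer GAGGAA, the core bound by the transcription factor PU.1 and its relatives, was searched on both strands, where it reads TTCCTC, after the values had been seen. It stood in 10 of the 12 windows (83.3%), against 9289 of all 32851 windows of the same length (28.3%). Such a match is a string of letters and no measured site, and it names no cell type. The windows below, of 300 bases each, are shown because they belong to 2 complement chains, the mannose receptor and the ficolin described next. Capitals mark the hexamer on either strand. C1qb lies at chr4:136886151-136886450 and C1qc at chr4:136892865-136893164, both on the minus strand. Mrc1 lies at chr2:14229164-14229463 on the plus strand, and Fcna at chr2:25627925-25628224 on the minus strand. The window of Cd163, which had the smallest adjusted p of all genes, does not hold these letters.
C1qb: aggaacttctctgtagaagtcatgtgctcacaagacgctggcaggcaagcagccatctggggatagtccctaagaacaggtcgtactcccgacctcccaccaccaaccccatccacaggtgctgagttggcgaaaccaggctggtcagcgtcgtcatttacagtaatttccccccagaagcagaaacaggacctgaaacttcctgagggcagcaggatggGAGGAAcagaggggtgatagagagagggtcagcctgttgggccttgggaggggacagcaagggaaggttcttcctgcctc
C1qc: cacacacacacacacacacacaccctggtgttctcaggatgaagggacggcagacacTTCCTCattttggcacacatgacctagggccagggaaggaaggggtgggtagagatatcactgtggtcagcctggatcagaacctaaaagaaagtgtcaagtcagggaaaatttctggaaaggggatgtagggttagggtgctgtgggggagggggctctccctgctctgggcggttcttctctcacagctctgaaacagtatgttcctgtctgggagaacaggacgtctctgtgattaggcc
Mrc1: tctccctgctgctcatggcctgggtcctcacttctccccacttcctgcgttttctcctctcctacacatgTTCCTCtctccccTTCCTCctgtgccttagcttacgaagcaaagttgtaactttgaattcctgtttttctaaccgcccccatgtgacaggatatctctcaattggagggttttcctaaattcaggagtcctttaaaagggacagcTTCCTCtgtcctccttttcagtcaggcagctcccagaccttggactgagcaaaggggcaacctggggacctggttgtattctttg
Fcna: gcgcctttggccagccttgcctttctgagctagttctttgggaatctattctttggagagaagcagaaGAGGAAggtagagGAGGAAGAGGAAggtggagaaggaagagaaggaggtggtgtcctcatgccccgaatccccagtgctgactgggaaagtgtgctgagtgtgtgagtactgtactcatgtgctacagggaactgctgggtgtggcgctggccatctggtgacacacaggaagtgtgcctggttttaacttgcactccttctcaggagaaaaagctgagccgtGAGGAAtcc

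The complement chains come first. C1qa, C1qb and C1qc encode the 3 chains of C1q, which macrophages and dendritic cells secrete. C1qb read 3.75 and 3.97 in arrays labelled FO, against -0.42 and 0.17 in arrays labelled T3, a difference of 3.98 ± 0.26 (adjusted p = 0.00013). C1qc read 4.24 and 3.92 in FO, against 0.04 and 0.44 in T3 (3.84 ± 0.39, adjusted p = 0.0019). C1qa read 3.39 and 3.41 in FO, against -0.30 and 0.72 in T3 (3.20 ± 0.40, adjusted p = 0.00722). For each chain both FO arrays stood clear of both T3 arrays. C1qa did not pass when FO replicate 1, FO replicate 2 or T3 replicate 1 was left out (adjusted p of 0.0727, 0.0726 and 0.0544). The soluble lectin ficolin A, Fcna, which also starts complement activation, read 3.22 and 3.06 in FO, against -0.47 and 0.04 in T3 (3.35 ± 0.20, adjusted p = 0.000109).

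Among receptors, Csf1r is the receptor on which most tissue macrophages depend. It read 3.83 and 4.02 in arrays labelled FO, against -1.13 and -0.20 in arrays labelled T3, and the difference was 4.59 ± 0.43 (adjusted p = 0.00135). Its further probe sets differed by 0.89 and 2.89 in the same direction. Mrc1, the mannose receptor, read 4.02 and 3.56 in FO, against -0.26 and -0.47 in T3 (4.16 ± 0.25, adjusted p = 0.000109). The scavenger receptor for haemoglobin bound to haptoglobin, Cd163, read 3.81 and 3.45 in FO, against -0.16 and 0.07 in T3 (3.67 ± 0.18, adjusted p = 3.86e-05). Axl, a receptor kinase that binds dying cells through Gas6, read 2.78 and 2.08 in FO, against -0.20 on both T3 arrays (2.63 ± 0.24, adjusted p = 0.00119). The related kinase Mertk rose by 1.80, Fcgr3, a low-affinity IgG receptor, by 1.62, and Sirpa, the receptor for CD47, by 1.97. In none of these did the groups overlap. Sirpa was higher elsewhere: under the NOD label T1 it read 1.76 and 2.19, against 1.41 and 1.72 in FO. The macrophage list mean on those T1 arrays was -0.18 and -0.03.

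A gene of adhesion and one of iron handling gave the 2 largest differences of all genes. Vcam1, an adhesion molecule that red pulp macrophages carry, read 5.52 and 5.57 in arrays labelled FO, against -0.55 and 0.22 in arrays labelled T3 (5.71 ± 0.59, adjusted p = 0.00196). Its further probe sets differed by 0.54 and 2.01. Slc40a1, the iron exporter ferroportin, read 4.97 and 4.37 in FO, against -0.93 and 0.10 in T3 (5.08 ± 0.50, adjusted p = 0.00168). Hmox1, which breaks down haem, rose by 1.70, the secreted scavenger protein Cd5l by 2.28, the lysosomal protein Cd68 by 2.36 and the prostaglandin-degrading enzyme Hpgd by 2.28. Cd68 also read 0.81 and 1.23 under the NOD label T1. Of the 17 list genes, 13 passed whichever array was left out, and C1qa, Fcgr3, Hmox1 and Sirpa did not. In the fit of all 24 arrays 8 of the 17 passed. Vcam1, Slc40a1, Csf1r and C1qb did not (adjusted p of 0.646, 0.804, 0.445 and 0.107), nor did Cd68, Hpgd, Cd5l, Fcgr3 and Sirpa (adjusted p of 0.0874 to 1).

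The 18 other members of the list did not pass. Spic, a transcription factor that red pulp macrophages need, read 2.94 and 2.32 in arrays labelled FO, against 0.14 and 0.88 in arrays labelled T3 (adjusted p = 0.111). Apoe, the lipid carrier, differed by 2.10 ± 0.39 (adjusted p = 0.0956). Adgre1, which encodes a surface antigen widely used to mark mouse macrophages, differed by 0.50 ± 0.33. Siglec1, of metallophilic macrophages, differed by 0.11 ± 0.27, and Marco, of marginal zone macrophages, by 0.69 ± 0.24. Itgam, which encodes the CD11b used for the depletion, differed by -0.13 ± 0.16. Pltp, a phospholipid transfer protein, ran the other way at 0.07 and 0.76 in FO, against 1.44 and 1.74 in T3 (adjusted p = 0.575).

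**Figure D2:**
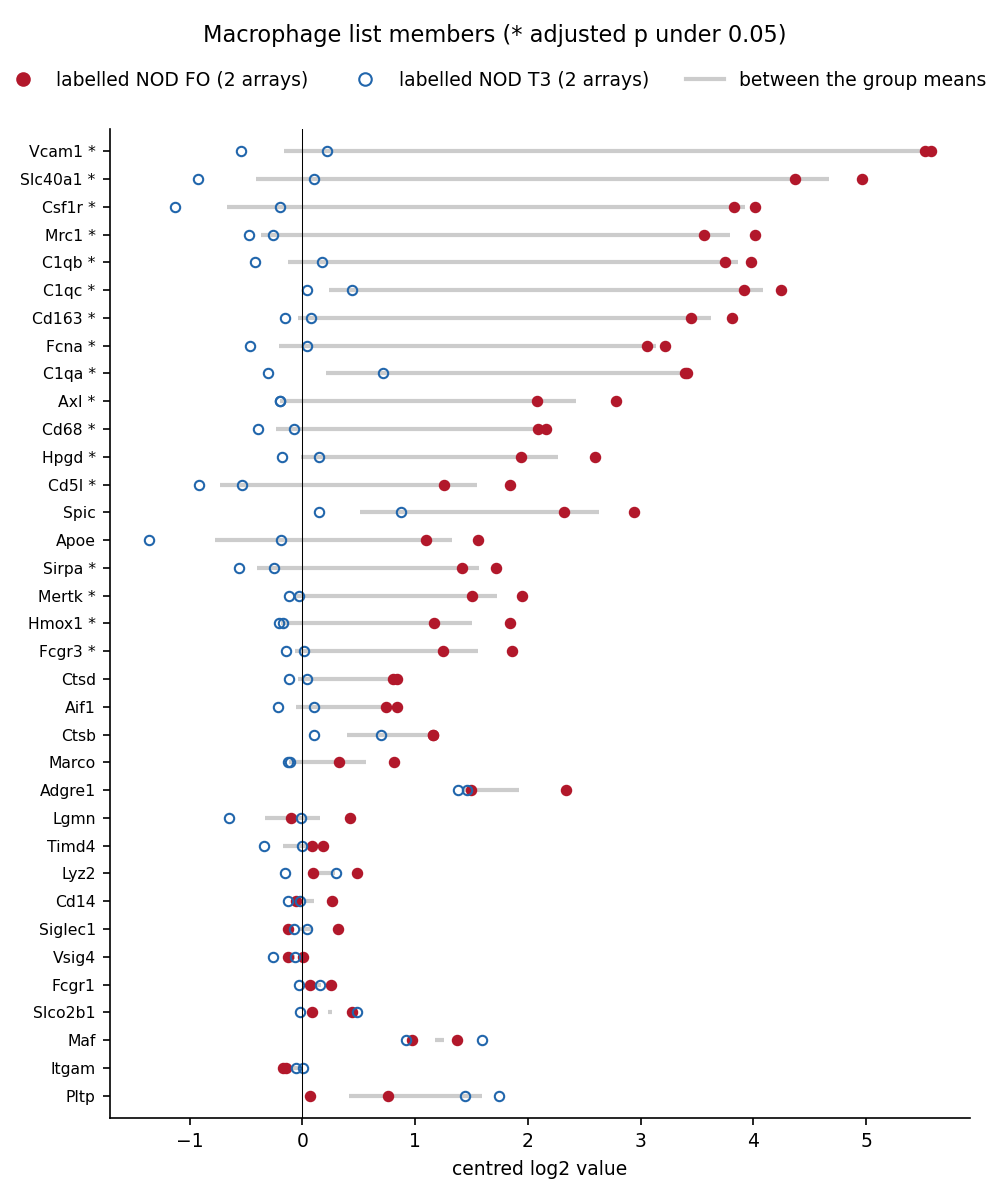
Centred log2 values of the members of the macrophage list on the arrays labelled NOD FO (filled) and labelled NOD T3 (open), with a line between the group means. The 17 genes that rose lie with both FO arrays to the right of both T3 arrays, Vcam1 and Slc40a1 farthest, and Pltp lies the other way.

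A further 14 genes that rose were in the macrophage class through their correlation alone: Adgre4, Lpl, Treml4, Clec4n, Frmd4b, Tgfbi, Slc11a1, Cd302, Pilrb1, Hfe, Igf1, Tmem51, Clec4a2 and Pilra. Adgre4, an adhesion receptor of myeloid cells, read 3.49 and 3.19 in arrays labelled FO, against -0.53 and -0.58 in arrays labelled T3 (3.90 ± 0.26, adjusted p = 0.00013). Lpl, lipoprotein lipase, read 3.17 and 3.02 in FO, against -0.29 and -0.12 in T3 (3.30 ± 0.20, adjusted p = 0.000109). Treml4, a receptor of splenic macrophages and dendritic cells, rose by 3.14. Slc11a1, which moves metal ions out of the phagosome, rose by 2.11, Hfe, of iron sensing, by 1.74, and Clec4n, the fungal receptor dectin-2, by 2.61. The correlation that placed these 14 rests for most of them on 1 array. Without B6 MZ replicate 2, 20 of the 51 genes belonged to the macrophage class in place of 31, and 31 in place of 20 to neither class. With the correlation taken over the 8 other NOD arrays, 22 belonged to the macrophage class and 29 to neither. Both macrophage counts include the 17 list genes that rose, which keep the class whatever their correlation, so few of the 14 stayed in it.

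Markers of other cells of the spleen gave no gene past the test. None of 12 measured T cell genes, 11 natural killer cell genes, 9 dendritic cell genes, 11 neutrophil and monocyte genes and 12 red cell and platelet genes passed the test. Their list medians lay between -0.05 and 0.07. Itgax, which encodes CD11c and is shared with macrophages, differed by 0.64 (adjusted p = 0.993), and Zbtb46, a transcription factor of classical dendritic cells, by -0.29. Cd6 of T cells differed by 0.44, Ccl5 by -0.65, S100a9 of neutrophils by 0.25 and Alas2 of red cell precursors by 0.45. The 18 genes of the plasma cell list, among them Prdm1 at 0.79 and Fkbp11 at -0.73, had a median of -0.01. All 18 overlapped between the groups, where 12487 of 18193 did over all genes.

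**Figure D3:**
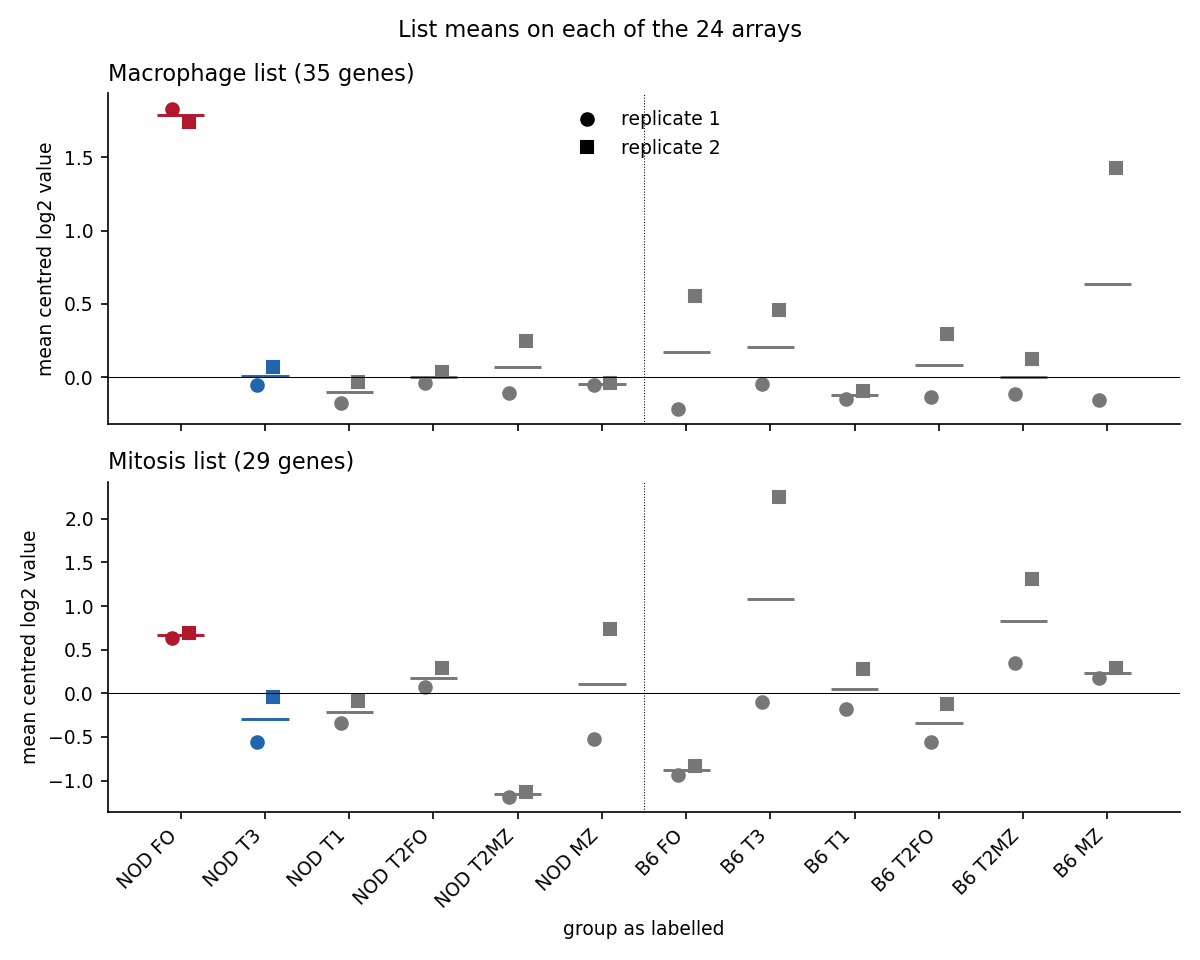
Mean centred log2 value of the macrophage list and of the mitosis list on each of the 24 arrays, by labelled group, with a bar at each group mean. The 2 arrays labelled NOD FO are the highest of all for the macrophage list (1.83 and 1.74), and B6 MZ replicate 2 follows at 1.43; for the mitosis list they lie at 0.64 and 0.69, below B6 T3 replicate 2 at 2.25.

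Cell cycle transcripts leaned the same way, with smaller differences and none past the test. All 29 measured genes of the mitosis list had a difference above 0 (8409 of 18193 over all genes), with a median of 1.13 and a range of 0.02 to 1.84. Both FO arrays lay above both T3 arrays in 22 of the 29 (75.9%, against 14.4% over all genes) and below them in none. At an unadjusted p of limma under 0.05, 18 of the 29 were higher and none lower, against 468 and 423 of 18193 over all genes. The lowest adjusted p of limma in the list was 0.234. Mki67, the proliferation antigen Ki-67, read 0.95 and 1.15 in arrays labelled FO, against -0.97 and -0.29 in arrays labelled T3 (1.67 ± 0.72, adjusted p = 0.996). Kif23, a kinesin of cytokinesis, read 0.75 and 0.57 in FO, against -0.43 and -0.50 in T3 (1.13 ± 0.26, adjusted p = 0.234). Its further probe sets differed by only 0.10 and 0.19. Kif20a, another kinesin of cytokinesis, read 0.98 and 0.92 in FO, against -0.08 and -0.11 in T3 (1.05 ± 0.28, adjusted p = 0.45). The groups did not overlap in these 3 genes.

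Against the other arrays, the FO values of the mitosis list were not extreme. The list mean was 0.64 and 0.69 on arrays labelled FO, against -0.55 and -0.04 on arrays labelled T3. The 8 other NOD arrays covered -1.18 to 0.74, the highest being replicate 2 of MZ, so that replicates of a single label could differ by more than the 2 groups did. Within the list the T3 replicates had an SD of 0.36, and those of FO an SD of 0.04. In B6 mice the list went the other way, with a median FO minus T3 of -1.99 and replicate 2 of T3 highest of all arrays at 2.25. No mitosis gene passed the test of the difference between the strains with all arrays, but 20 did without replicate 1 of B6 T3. Among 28 measured genes of DNA replication, 24 had a difference above 0 (8409 of 18193 over all genes) with a median of 0.42, and none passed. Mcm5, a subunit of the replicative helicase, read 1.04 and 0.38 in FO, against 0.19 and -0.73 in T3 (adjusted p = 0.722). Gins2, which joins that helicase, read 0.59 and 0.64 in FO, against 0.02 and 0.07 in T3 (adjusted p = 0.769).

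**Figure D4:**
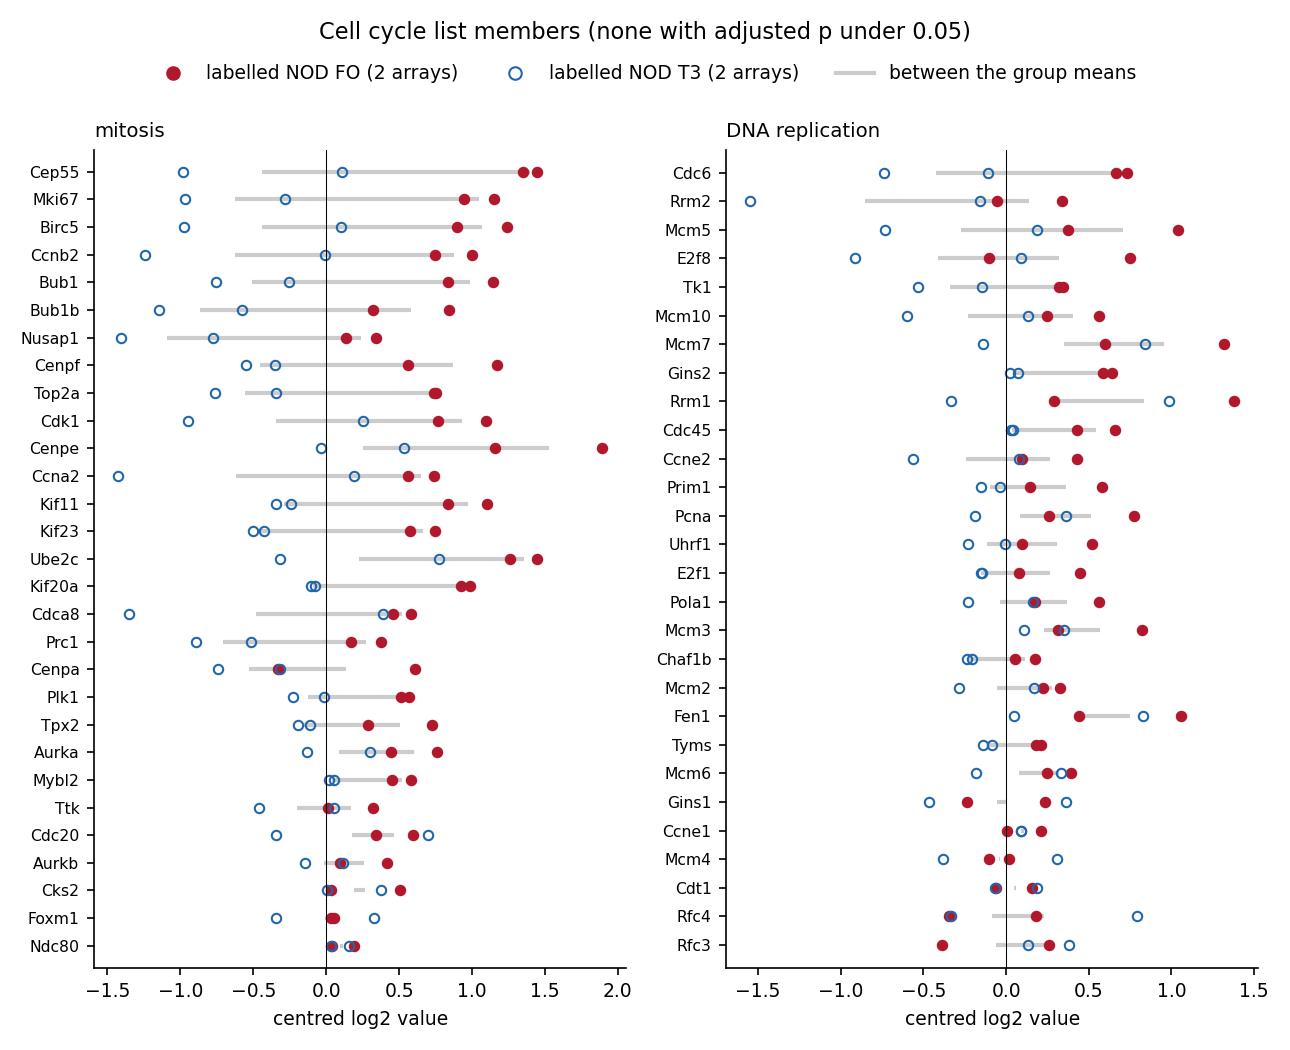
Centred log2 values of the members of the mitosis list (left) and the DNA replication list (right) on the arrays labelled NOD FO (filled) and labelled NOD T3 (open), with a line between the group means. All 29 mitosis genes have the higher mean in FO, by up to 1.84, but one T3 array often lies far below the other, and no gene passed the test.

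With the macrophage and cell cycle classes set aside, 20 genes passed, 19 higher and 1 lower in arrays labelled FO. In all of the 19 the FO arrays lay above the T3 arrays, as in every gene that rose. These classes were set aside by a threshold, and 8 of the 20 still correlated above 0.5 with the macrophage list mean over the other arrays. Adamdec1, a metalloprotease known from macrophages and dendritic cells, read 3.47 and 2.75 in FO, against -0.30 and -0.07 in T3 (3.29 ± 0.28, adjusted p = 0.000912), with a correlation of 0.63. Fcer1g, the signalling chain of Fc receptors in myeloid cells, differed by 2.24 ± 0.31 (adjusted p = 0.0156) with a correlation of 0.67. Tspan4, a tetraspanin, differed by 1.36 at 0.69. Others known from myeloid cells fell outside the class: the inhibitory receptor Cd300a rose by 1.77, Ms4a7 by 1.53, the phospholipase Pla2g7 by 2.19 and the niacin receptor Hcar2 by 1.34. Pla2g7 and Ms4a7 were highest elsewhere: under the NOD label T1, where the macrophage list mean was -0.18 and -0.03, Pla2g7 read 4.61 and 3.80 and Ms4a7 2.17 and 2.66. The syndecan Sdc3 rose by 1.01, the least of the 19. The B cell share of any of these values was not tested.

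Outside the classes, the genes that passed whichever array was left out were Adamdec1, Tgm2, Sash1, Slc45a3, Abcc3 and Mef2b. Tgm2, a transglutaminase that crosslinks proteins, read 1.66 and 1.42 in arrays labelled FO, against -1.06 and -1.01 in arrays labelled T3 (2.57 ± 0.24, adjusted p = 0.0014), while its 5 further probe sets differed by 0.04 to 2.16. Sash1, a scaffold protein, read 2.36 and 2.57 in FO, against -0.24 and 0.23 in T3 (2.48 ± 0.18, adjusted p = 0.000291), and it correlated at 0.52 with the macrophage mean. Its further probe set differed by -0.03. Slc45a3, a solute carrier, read 1.72 and 1.26 in FO, against -0.28 and -0.13 in T3 (1.69 ± 0.19, adjusted p = 0.00348). The transporter Abcc3 differed by 1.68 ± 0.19 (adjusted p = 0.00348). In each the 2 groups stood clear of each other. The count of 20 was 8 without T3 replicate 2, 12 without FO replicate 2 and 11 with all 24 arrays, where Tgm2 and Sash1 did not pass (adjusted p of 0.52 and 0.176).

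Mef2b, a transcription factor best known from germinal centre B cells, was picked from the 20 after its values were seen, as the gene with the most direct tie to B cells. It read 1.58 and 1.57 in arrays labelled FO, against 0.13 and 0.38 in arrays labelled T3 (1.32 ± 0.14, adjusted p = 0.00257). Its correlation with the macrophage mean was 0.18. Among the other NOD groups it was highest under the label T2FO, at 0.84 ± 0.10 (SD, n = 2). In B6 mice it read -0.29 and -0.13 in FO and 0.22 and 1.08 in T3. The FO arrays of NOD mice were thus above all others of the series in this gene.

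The single gene that fell was Lifr, the receptor for leukaemia inhibitory factor. It read -0.46 and -0.21 in arrays labelled FO, against 1.82 and 1.71 in arrays labelled T3 (-2.10 ± 0.32, adjusted p = 0.0292). Across NOD groups it was high under the label T2FO (mean 1.82) and lowest under T1 (mean -2.78). Its further probe sets differed by -0.11 and -1.34. It did not pass when any 1 of the 4 arrays was left out (adjusted p of 0.142 to 0.232), nor with all 24 arrays.

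**Figure D5:**
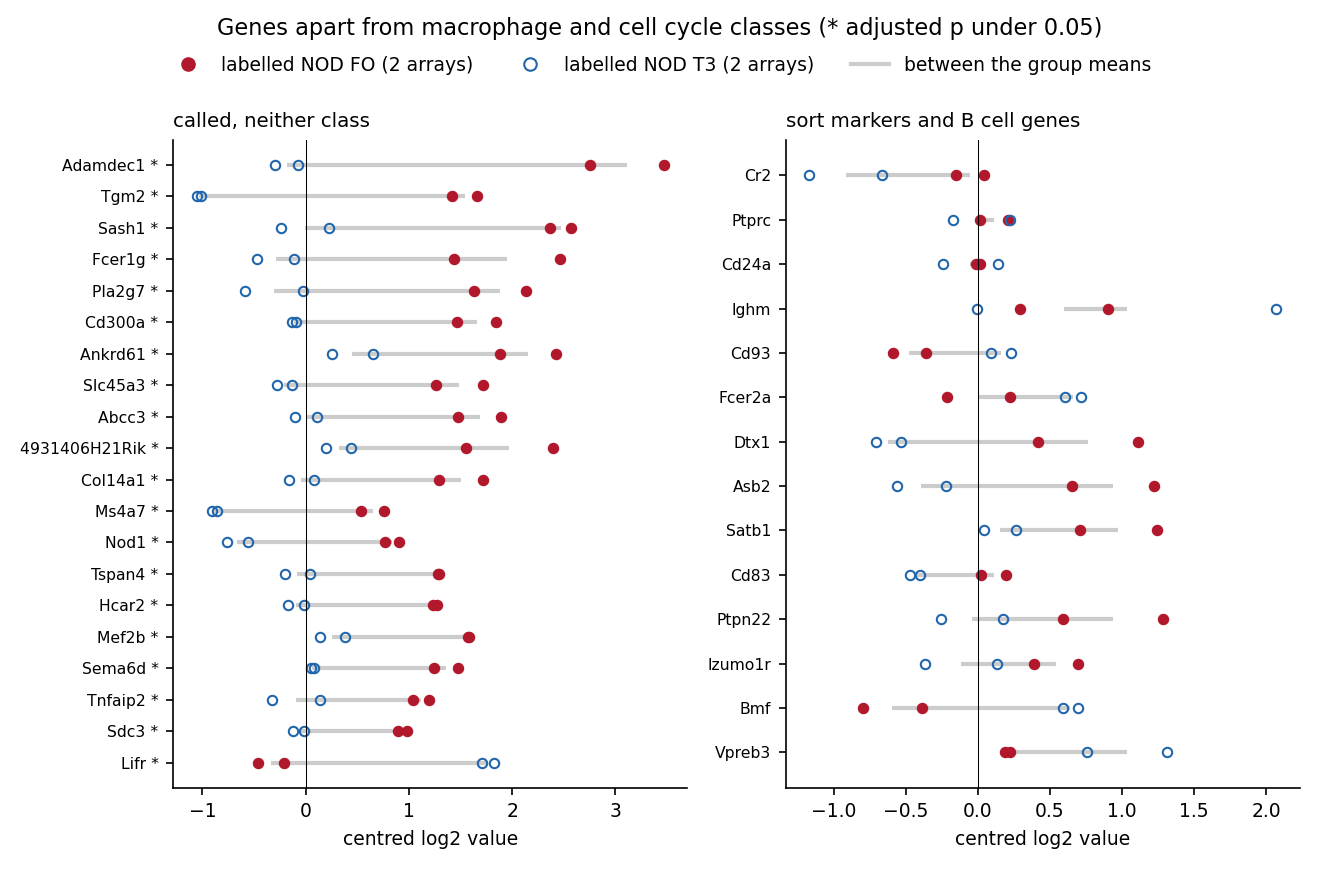
Centred log2 values on the arrays labelled NOD FO (filled) and labelled NOD T3 (open), with a line between the group means, for the 20 genes outside both classes that passed the test (left) and for the sort marker genes and named B cell genes, none of which passed (right). Adamdec1 and Tgm2 lie farthest to the FO side and Lifr alone to the T3 side; on the right Bmf and Dtx1 have the clearest separation.

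Genes of B cell stages, which the labels would set apart, gave no call in the fit without a replicate block. Of the 6 sort marker genes none passed. Cr2 read 0.04 and -0.15 in arrays labelled FO, against -0.66 and -1.17 in arrays labelled T3 (0.86 ± 0.18, adjusted p = 0.17). Fcer2a, which encodes CD23, read 0.22 and -0.22 in FO, against 0.71 and 0.60 in T3 (-0.65 ± 0.27, adjusted p = 0.987). Ighm overlapped between the groups, with 0.29 and 0.90 in FO, against -0.01 and 2.07 in T3, and Cd24a and Ptprc differed by 0.05 and 0.09. Further probe sets of Ighm differed by -0.17 to 0.99. Of 14 measured genes of immature B cells, 13 had a difference below 0 (9784 of 18193 over all genes), with a median of -0.11. In 4 both FO arrays lay below both T3 arrays (28.6%, against 16.9% over all genes). The nearest to the threshold was Bmf, which promotes B cell death: it read -0.39 and -0.80 in FO, against 0.69 and 0.59 in T3 (-1.23 ± 0.22, adjusted p = 0.0706). It passed with the replicate number as a block (adjusted p = 0.0131), and its further probe sets differed by 0.02 and 0.28, the other way. Vpreb3, a chaperone of the pre-B receptor, differed by -0.83 (adjusted p = 0.575).

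For mature cells, the 14 measured follicular genes had a median of -0.05, with Satb1 at 0.82 (adjusted p = 0.257). Further probe sets of Satb1 differed by -0.38 to 0.91. The marginal zone list leaned towards FO, with a median of 0.51 and both FO arrays above both T3 arrays in 10 of 17 genes (58.8%, against 14.4% over all genes). Dtx1, a target of Notch signalling that marginal zone cells need, read 0.41 and 1.11 in arrays labelled FO, against -0.53 and -0.71 in arrays labelled T3 (1.38 ± 0.24, adjusted p = 0.0624). It passed without FO replicate 1 (adjusted p = 0.0281) and with the replicate number as a block (adjusted p = 0.0367), and its further probe set differed by -0.16. Asb2, a ubiquitin ligase subunit, differed by 1.33 (adjusted p = 0.366). No marginal zone gene passed with all 4 arrays and no block.

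The T3 gate is known for anergic cells, so a list of 26 immediate early and anergy genes was read. None passed, and the list mean was 0.51 and 0.65 on arrays labelled FO, against 0.55 and -0.34 on arrays labelled T3, so that the 2 T3 arrays lay on either side of 0. Ptpn22, a phosphatase that restrains antigen receptor signals, differed by 0.98 (adjusted p = 0.549), and Izumo1r, a folate receptor relative known from anergic T cells, by 0.66 (adjusted p = 0.963). Of 20 B cell receptor signalling genes none passed, with Nfatc1 at 0.91 and Blk at 0.39. The inhibitory receptors Ceacam1, at -0.75 (adjusted p = 0.183), and Lair1, at 0.76 (adjusted p = 0.578), ran opposite ways. In the BAFF and survival list Bcl2 differed by 0.63 and Bcl2l11, which encodes its antagonist Bim, by 0.54.

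Interferon response genes lay lower in arrays labelled FO without passing. Of 17 differences 15 were below 0, against 9784 of 18193 over all genes, and the median was -0.59. In 8 of 17 genes both FO arrays lay below both T3 arrays (47.1%, against 16.9% over all genes). The list mean was -0.18 and -1.10 on the FO arrays, against 0.06 and 0.00 on the T3 arrays, so the FO replicates lay far apart. Oas2, an antiviral enzyme that double-stranded RNA activates, differed by -0.92 (adjusted p = 0.575) and Cmpk2 by -1.29 (adjusted p = 0.789). In the MHC class II and costimulation list Cd80 differed by 0.51 and Cd83 by 0.54. Among migration genes the sphingosine phosphate receptor S1pr4 differed by -0.99 (adjusted p = 0.395) and S1pr2 by 0.77 (adjusted p = 0.675). None of these lists had a member past the test.

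Whether FO minus T3 differed between the strains was tested in one fit over all 24 arrays. The fit takes a label to stand for the same cells in both strains. That was not tested, and the NOD labels ran against the gate transcripts in part. The marginal zone list mean was 2.00 and 1.73 on NOD arrays labelled T1, against -0.17 and -0.32 on B6 arrays labelled T1. Under T2MZ it was -0.71 and -0.49 in NOD, against 0.57 and 0.49 in B6. Under MZ it was high in both strains (0.75 and 0.86 in NOD, 1.45 and 1.49 in B6). A difference between strains and one between the cells under a label can therefore not be told apart here. FO minus T3 differed between the strains for 6 of 18193 genes (0.033%), none of them on the macrophage or mitosis lists. Of these, Mef2b and Slc45a3 were also changed within NOD mice. For Mef2b the NOD difference exceeded that of B6 mice by 2.18 ± 0.29 (adjusted p = 0.0288), and for Slc45a3 by 1.75 ± 0.25 (adjusted p = 0.0288). Slc45a3 was nearly level in B6 mice, at 0.12 on both FO arrays, against 0.19 and 0.15 on the T3 arrays. For C1qa the difference between the strains was 3.20 ± 0.77 (adjusted p = 0.186) and for Csf1r 5.15 ± 1.70 (adjusted p = 0.562). The count of 6 was 0 without replicate 1 or 2 of B6 FO, without replicate 1 of NOD T3 or without replicate 2 of NOD FO, where 1197, 749, 745 and 633 genes had an unadjusted p under 0.05 in limma. It was 158 without replicate 1 of B6 T3, among them 5 macrophage and 20 mitosis list genes, 3 without its replicate 2, 1 without replicate 2 of NOD T3 and 2 without replicate 1 of NOD FO. The B6 arrays also differed in the 5′ β-actin control, which read -3.51 and 0.47 on B6 FO arrays and -1.02 and -3.27 on B6 T3 arrays, and its part in these values was not tested.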

How the data were processed

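RNA of 24 samples was measured, with 2 arrays for each of 12 groups. Per the submitters' processing notes the authors made the values with RMA. The deposited values were taken as log2, since neither the base nor the RMA version is given in the sources used here. The median of each probe set over the 24 arrays was 0 (largest 5e-07), so no filter on dim probe sets could be made and no level was had. In the platform's annotation 34945 of 45101 probe sets had 1 gene, 932 several and 9160 none, beside 64 controls. By gene number 34741 matched the NCBI gene table of GRCm38.p6, used for names, and 0 symbols changed. For each gene the probe set of largest SD over the 20 arrays outside the comparison was kept, which left 18193 genes, 9010 of them with several probe sets.

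The 12 NOD arrays were fitted as 6 group means with limma 3.58.1 in R 4.3.3, with Benjamini-Hochberg adjustment over all genes at 0.05. The difference between strains was fitted over all 24 arrays. The steps were tested on simulated data. For the correlations that made the classes, the strain mean was first subtracted. The labels call the arrays of a group biological replicates. No pair of arrays had identical values, and the highest correlation of any pair was 0.89. Array medians lay between -0.04 and 0.06.

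Named genes were C1qa, Csf1r and Mki67, the sort marker genes, the 10 largest differences that passed in each direction, the 15 largest outside the classes, up to 6 or 4 genes of a list that passed, and otherwise 2 with the smallest p. Further genes named were chosen after their values were seen. The comparison, lists and genes were chosen with earlier results of these data known. Alternatives were other choices of probe set, other arrays in the fit, median scaling, leaving out the less variable genes, the replicate number as a block, other class rules and leaving out each array. Promoter windows are those of RefSeq on GRCm38; the window of Csf1r was not used. A planned search of mitosis promoters was not made, since no mitosis gene passed.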

Additional observations from a re-analysis of the deposited data

Results flagged for a closer look

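For 6 genes the FO minus T3 difference of NOD mice differed from that of B6 mice by the test of the difference itself in limma. It was higher in NOD mice for Pcp4, a calmodulin-binding peptide, by 3.8 (adjusted p = 0.0288). The NOD arrays labelled FO read 1.91 and 1.29, against -0.67 and 0.57 in those labelled T3. It was higher for Rgs10, a regulator of G protein signalling, by 3.7 (adjusted p = 0.0484), and for the nuclease Dnase1l3 by 3.44 (adjusted p = 0.0288). Mef2b followed at 2.18 and Slc45a3 at 1.75. For Cyp27a1, the sterol 27-hydroxylase, it was lower, by -2.14 (adjusted p = 0.0484). Low values also stood under another NOD label. Dnase1l3 read -2.21 and -2.37 in B6 FO, and -2.91 and -2.03 in NOD labelled T2MZ. Rgs10 read -2.17 and -2.33 in B6 FO, and -2.28 and -1.23 in NOD labelled T2MZ. Pcp4 did not share this, at -1.14 and -1.68 in B6 FO, and 0.45 and 0.60 in NOD labelled T2MZ. Whether a label holds the same cells in both strains was not tested. Pcp4, Rgs10, Dnase1l3 and Cyp27a1 did not pass within NOD mice alone (adjusted p of 0.235, 0.734, 1 and 0.412).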

How the results depend on the processing

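The count of 51 genes that passed, 50 of them higher in arrays labelled FO, was 22 with all 24 arrays in the fit and 9 with only the 4 arrays compared, all of them higher. Leaving out each array gave 33 to 40 genes in all and 33 to 40 higher. The lone array left in a group is then assumed to vary like the other groups. The macrophage list members that passed, 17, were 8 with all 24 arrays and 6 with only the 4 arrays. The mitosis list median of 1.13 was 0.77 when a gene's probe sets were averaged and lay between 0.79 and 1.31 when arrays were left out. The 20 genes outside both classes were 11 with all 24 arrays, 1 with only the 4 arrays, 10 with a class threshold of 0.5, and 31 with the classes made without B6 MZ replicate 2, an alternative chosen after seeing the data. Leaving out each array gave 8 to 15. The 6 genes that differed between strains were 17 with averaged probe sets, and 0 to 158 when arrays were left out. The causes of these changes were not tested. With the replicate number as a block, which may stand for a pool, 75 genes passed, 69 higher and 6 lower, including all 51. The count outside both classes was then 40, and between strains 66, among them 9 macrophage and 7 mitosis list genes. The labels do not say that a number marks a shared pool. Same-numbered arrays of NOD groups deviated together with correlations of -0.06 to 0.51, and those of FO and T3 at 0.34. With the block Bmf (adjusted p = 0.0131) and Dtx1 (0.0367) passed, as they did with the number as a random block (0.0263 and 0.037, 57 genes in all). Median scaling gave 51 genes, leaving out the less variable 50% gave 43, and averaged probe sets gave 54, of which 44 were among the 51. No difference of a named gene changed sign while it passed. Of the 27 genes that passed and have several probe sets, 20 have a further probe set that differed under 25% as much or the other way. With centred values, signal over background could not be had.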

Other observations

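Some genes outside the lists stood apart without passing, and were picked after their values were seen. Wfdc21 had the lowest difference of all genes, with 0.02 and -0.20 in arrays labelled FO, against 1.58 and 3.33 in arrays labelled T3 (-2.55 ± 0.56, adjusted p = 0.205). Egfl6, a secreted protein with EGF repeats, read 0.34 and 0.57 in FO, against 1.98 and 2.30 in T3 (adjusted p = 0.106). Tle4, a transcriptional corepressor, read 0.63 and 0.62 in FO, against -0.53 and -0.62 in T3 (adjusted p = 0.0536).

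The immediate early genes Junb and Dusp1 differed more between the T3 replicates than between the groups. Junb, a subunit of the AP-1 transcription factor, read 3.16 and 2.79 in arrays labelled FO, against 2.87 and 0.73 in arrays labelled T3. Dusp1, a phosphatase of MAP kinases, read 1.68 and 0.86 in FO, against 1.95 and -1.11 in T3. In both genes T3 replicate 2 was the low array and T3 replicate 1 lay within or above the FO range.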
